A study of Mus musculus with 4 samples.

Results

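The genes described here are 9 early response genes of T cells: the zinc finger transcription factors Egr1, Egr2 and Egr3, their corepressors Nab1 and Nab2, the orphan nuclear receptors Nr4a1, Nr4a2 and Nr4a3, and the activation marker Cd69. They were taken by symbol from the 26334 rows of the deposited expression table, and all 9 were in it. RNA was measured by bulk sequencing of polyadenylated transcripts in mouse T helper 1 (Th1) cells, which were grown for 5 days under Th1 conditions from naive CD4+ T cells of the spleen. For 2 libraries the culture received phosphate-buffered saline (PBS), the vehicle, and for the other 2 it received interleukin-16 (IL-16), a cytokine that binds CD4, while both groups went through the same Th1 culture. Strain, age, the number of animals and the dose of IL-16 are not stated in the labels, which also do not say whether the 2 libraries of each group stem from different animals or cultures. Every p-value therefore rests on the spread between libraries alone, which may be technical.

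Egr and Nr4a genes are switched on within minutes of T cell receptor engagement. Ras, ERK and calcium signals reach them through serum response factor with its Elk partners, CREB, NFAT and MEF2. Egr1 promotes cytokine gene transcription, while Egr2 and Egr3 restrain T cell activation and are known for their part in anergy. Nab1 and Nab2 bind Egr proteins and limit their activity, and Nab2 is itself induced by Egr factors. The Nr4a receptors carry no known natural ligand that they need, so their activity follows their level, and in T cells they are known for roles in tolerance, exhaustion and regulatory T cells. Cd69 reaches the cell surface soon after activation and holds the sphingosine-1-phosphate receptor S1pr1 inside the cell.

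The source and cell type labels name peritoneal macrophages, whereas the titles name Th1 cells. The 10 T cell markers examined had median levels of 169 to 189 FPKM (fragments per kilobase of transcript, scaled to library size) in the 4 libraries. The 14 macrophage markers had medians of 0.0234 to 0.0692 FPKM, with 4 of them at 0 in all libraries and Cd68 highest at 4.88 FPKM. The summed level of the macrophage markers was 4.91 and 5.64 FPKM with PBS against 5.23 and 6.37 FPKM after IL-16. The 5 B cell markers summed to 3.13 and 4.09 FPKM with PBS but to 1.71 and 2.11 FPKM after IL-16. For the 2 CD8 T cell markers the sum was 8.75 and 8.23 FPKM with PBS against 9.99 and 8.63 FPKM after IL-16. Of these, Cd8b1 was highest at 7.86 FPKM. The part of B cells and CD8 T cells in the results was not tested. Library totals ran from 373924 to 391153 FPKM, and the number of reads behind a value is unknown. Ifng, the signature Th1 cytokine, was 58.1 and 53.0 FPKM with PBS against 120 and 123 FPKM after IL-16.

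Over the 9 genes, the response to IL-16 was small. On the log2(FPKM + 1) scale Egr3 showed the largest difference (-0.56), with a mean 34.8% lower after IL-16, followed by Nr4a3 (-0.35), with a mean 24.7% lower. In plain FPKM the ratio of means was farther from 1 for Nr4a2, at 1.39, than for Nr4a3, at 0.753. Egr2 and Cd69 stood at nearly the same mean level with and without IL-16. Egr1 and Nr4a2 were higher in IL-16 replicate 2 alone. None of the 9 genes passed the test over the whole table, which was limma on log2(FPKM + 1) with an adjusted p under 0.05, in which 26 of 11882 rows were called (0.219%). At an unadjusted p under 0.05 there were 2 of the 9 genes (22.2%), Egr3 and Nr4a3, against 23.4% of all tested rows, so that share lies near the background. The IL-16 values lay below both PBS values in 4 of the 9 genes (44.4%), Egr3, Nab1, Nr4a1 and Nr4a3, and above both in 0, against 34.8% of tested rows lying below and 24.1% above. The median log2 fold change of the 9 genes was -0.12, beside -0.045 over all tested rows. In bulk RNA, fewer cells that carry a transcript and less transcript per cell cannot be told apart.

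**Figure D1:**
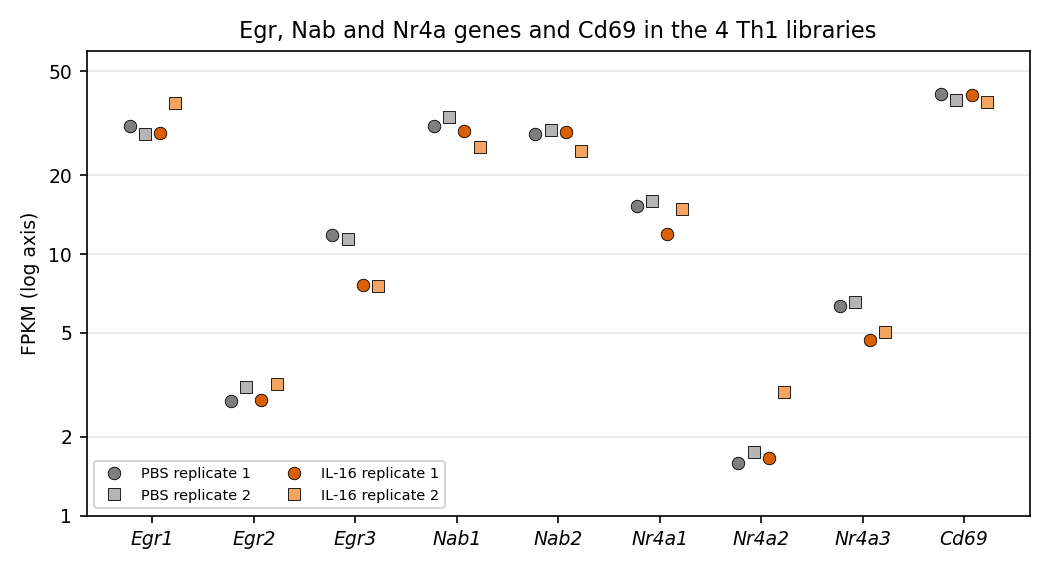
Level of each gene in FPKM on a log axis, 1 point per library, with grey for PBS and orange for IL-16, circles for replicate 1 and squares for replicate 2. The Egr3 points of the IL-16 libraries (7.60 and 7.58 FPKM) lie together below those of the PBS libraries (11.8 and 11.4 FPKM), whereas the Cd69 points lie between 38.3 and 40.9 FPKM in all 4.

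The levels of these genes spanned a wide range within the PBS libraries. Cd69 was the most abundant at 39.8 ± 1.496 FPKM (SD, n = 2), above 85.4% of tested rows. Nab1, Egr1 and Nab2 followed at 32.3 ± 1.85, 29.8 ± 1.51 and 29.4 ± 0.829 FPKM. In that order Egr1 and Nab2 overlapped in the PBS libraries, and the Nab1 values of 30.97 and 33.6 FPKM lay just above the highest Egr1 value of 30.9 FPKM. Nr4a1 at 15.6 ± 0.550 FPKM, Egr3 at 11.6 ± 0.297 FPKM and Nr4a3 at 6.45 ± 0.192 FPKM were each separated from their neighbours by more than the spread of the libraries. Egr2 at 2.93 ± 0.257 FPKM and Nr4a2 at 1.67 ± 0.114 FPKM were the least abundant, the latter above 11.4% of tested rows. The fourth Egr gene of the table, Egr4, was listed at 0 in both PBS libraries and at 0.0968 and 0.181 FPKM with IL-16, and was not tested.

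Among the Egr factors, Egr3 differed most between the groups. Egr3 was 11.8 and 11.4 FPKM in cells given PBS, against 7.60 and 7.58 FPKM in those given IL-16. Both IL-16 values were lower, and the replicates of each group lay close together, 0.048 log2 units apart with PBS and 0.0039 with IL-16. The log2 fold change was -0.56 (SE 0.086, 95% interval -0.77 to -0.34), the 140th smallest p of the 11882 tested rows, with an adjusted p of 0.0849 in limma. It was therefore not called with all 4 libraries. It was called in 1 of 12 alternative fits, the one without IL-16 replicate 1, in which 17.4% of all tested rows were called (adjusted p = 0.0283). Without PBS replicate 1 the adjusted p was 0.420. The log2 fold change itself stayed between -0.61 and -0.40 over those 12 fits.

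Egr1, the prototype of the family and the most abundant of them here, was 30.9 and 28.7 FPKM with PBS against 29.2 and 37.7 FPKM after IL-16. IL-16 replicate 2 stood above the other 3 libraries, IL-16 replicate 1 lay within the PBS range, and the groups overlapped. Its log2 fold change was 0.15 (SE 0.13, 95% interval -0.18 to 0.49, limma adjusted p = 0.512). This value rested on IL-16 replicate 2: the log2 fold change was -0.027 without it and 0.33 without IL-16 replicate 1.

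Egr2, which acts with Egr3 in restraining activated T cells, was 2.75 and 3.11 FPKM with PBS against 2.77 and 3.19 FPKM after IL-16. The groups overlapped almost completely. On the log2 scale the difference was 0.018 (95% interval -0.30 to 0.34, limma adjusted p = 0.946). A second row that carries the Egr2 symbol with a copy suffix held 2.37 and 3.01 FPKM with PBS against 2.75 and 2.99 FPKM after IL-16. Reads may have been divided between these rows, and with both rows summed the log2 fold change was 0.052 (limma adjusted p = 0.817).

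The share of Egr3 among the Egr transcripts was lower in both IL-16 libraries. Summed over Egr1, Egr2 and Egr3, the level was 45.4 and 43.2 FPKM with PBS against 39.6 and 48.5 FPKM after IL-16, and the groups overlapped. Egr3 made up 26.1% and 26.4% of that sum with PBS and 19.2% and 15.6% with IL-16. The ratio of Egr1 to Egr3 was 2.61 and 2.51 with PBS and 3.84 and 4.98 with IL-16, higher in both IL-16 libraries. With 2 libraries against 2, the smallest two-sided p that an exact permutation test can give is 0.333, and no other test of this ratio was run.

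**Figure D2:**
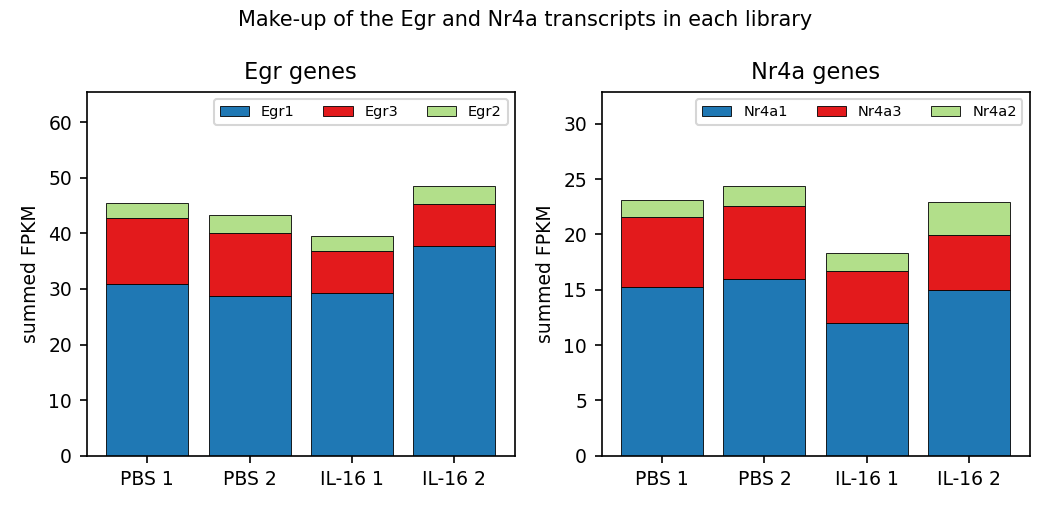
Stacked FPKM of the Egr genes (left) and the Nr4a genes (right) in each library, 1 bar per library starting at 0. The Egr3 part of the Egr bar shrinks from 26.1% and 26.4% in the PBS libraries to 19.2% and 15.6% in the IL-16 libraries, and the Nr4a1 part of the Nr4a bar stays between 65.1% and 65.8%.

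The summed level of the corepressors exceeded that of the Egr factors in all 4 libraries and was lowest in IL-16 replicate 2. Nab1, which binds Egr proteins through their inhibitory domain, was 30.97 and 33.6 FPKM with PBS against 29.5 and 25.7 FPKM after IL-16. Both IL-16 values were below both PBS values, replicate 1 by a small margin. The log2 fold change was -0.22 (SE 0.096, 95% interval -0.46 to 0.024, limma adjusted p = 0.244). Nab2, the Egr-inducible corepressor, was 28.8 and 29.99 FPKM with PBS against 29.5 and 24.8 FPKM after IL-16. IL-16 replicate 1 lay within the PBS range and replicate 2 was lower. Its log2 fold change was -0.12 (95% interval -0.38 to 0.14, limma adjusted p = 0.512), and it was 0.0032 without IL-16 replicate 2. In GENCODE, Nab2 overlaps Nemp1, Stat6 and the antisense gene Gm16229 on the opposite strand, and since strand-specific counting is not stated, reads of these genes cannot be told apart where they overlap. Nemp1 was 14.4 and 14.9 FPKM with PBS against 13.2 and 12.2 FPKM after IL-16. The summed Nab level divided by the summed Egr level was 1.32 and 1.47 with PBS and 1.49 and 1.04 with IL-16, so the groups overlapped and IL-16 replicate 2 had the lowest ratio.

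The Nr4a receptors differed in the sign of their changes, and none of them passed. Nr4a3, or NOR-1, was 6.32 and 6.59 FPKM with PBS against 4.69 and 5.03 FPKM after IL-16. Both IL-16 values were lower, and the gap between the groups exceeded the gap within either. On the log2 scale the difference was -0.35 (SE 0.10, 95% interval -0.60 to -0.093), with an adjusted p of 0.148 in limma. It was not called in any of the 12 alternative fits (adjusted p 0.115 to 0.512), in which its log2 fold change ran from -0.40 to -0.22.

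Nr4a1, or Nur77, which is widely used as a reporter of T cell receptor signal strength, was 15.2 and 16.001 FPKM with PBS against 12.0 and 14.95 FPKM after IL-16. IL-16 replicate 1 was clearly below the PBS libraries, whereas replicate 2 was just below them. The log2 fold change was -0.21 (SE 0.12, 95% interval -0.52 to 0.0997, limma adjusted p = 0.345). It was -0.36 without replicate 2 of IL-16 and -0.058 without its replicate 1.

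Nr4a2, or Nurr1, was 1.59 and 1.75 FPKM with PBS against 1.66 and 2.97 FPKM after IL-16. IL-16 replicate 2 alone was high, and IL-16 replicate 1 lay within the PBS range. Its log2 fold change was 0.28 (SE 0.22, 95% interval -0.26 to 0.83, limma adjusted p = 0.455) and -0.0042 without IL-16 replicate 2. At this low level the log2(FPKM + 1) scale understates differences. Nr4a1 was 65.1% to 65.8% of the summed Nr4a level in all 4 libraries. Nr4a3 was 27.3% and 27.1% of it with PBS and 25.6% and 21.9% with IL-16.

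**Figure D3:**
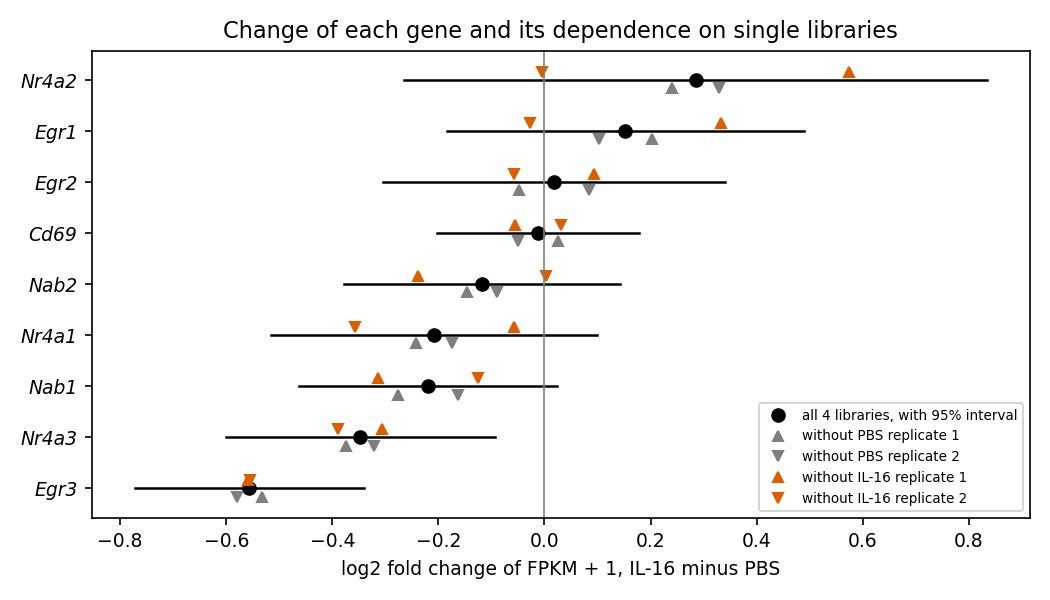
Log2 fold change of FPKM + 1 (IL-16 minus PBS) for each gene, black points with 95% intervals from limma for all 4 libraries, and triangles for the fits without 1 library. Egr3 and Nr4a3 have intervals below 0 (-0.77 to -0.34 and -0.60 to -0.093), and Egr1, Nab2 and Nr4a2 lie close to 0 without IL-16 replicate 2.

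Cd69 was 40.9 and 38.8 FPKM with PBS against 40.7 and 38.3 FPKM after IL-16. The groups overlapped and each spanned about the same range. On the log2 scale the difference was -0.012 (SE 0.075, 95% interval -0.20 to 0.18, limma adjusted p = 0.936). Its sign turned with the scaling, to 0.034 after median-of-ratios scaling and 0.016 after rescaling to TPM. S1pr1, named here as the receptor that Cd69 retains and after its values were seen, was 28.7 and 27.6 FPKM with PBS against 25.6 and 29.3 FPKM after IL-16 (log2 fold change -0.035, limma adjusted p = 0.840), also with overlapping groups.

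The promoters of these genes are shown for the elements through which activation signals are known to reach them. RefSeq windows of GRCm38.p6 matched 6 of the 9 genes by symbol, and Egr1, Egr3 and Cd69 did not match. The 250 bases before each annotated start were searched on both strands for the core of the cyclic AMP response element, TGACG, for its full palindrome TGACGTCA, which contains that core on both strands, for the Egr sites GCGTGGGCG and GCGGGGGCG, for the Nr4a monomer site AAAGGTCA (NBRE) and for the CArG box of serum response factor. Capitals in the Nr4a and Egr2 sequences mark TGACG or its complement CGTCA and, in Egr2, also the CArG box. Capitals in the Nab1 sequence mark GCGTGGGCG read on the other strand. Each sequence is given 5′ to 3′ on the gene's strand, and the Nr4a3 stretch ends before the first exon of that gene in GENCODE. The Nab1 stretch lies within the first exon, in the untranslated part, of a Nab1 transcript in GENCODE that starts farther upstream than the RefSeq start.
Nr4a1, chr15:101266596-101266845, plus strand: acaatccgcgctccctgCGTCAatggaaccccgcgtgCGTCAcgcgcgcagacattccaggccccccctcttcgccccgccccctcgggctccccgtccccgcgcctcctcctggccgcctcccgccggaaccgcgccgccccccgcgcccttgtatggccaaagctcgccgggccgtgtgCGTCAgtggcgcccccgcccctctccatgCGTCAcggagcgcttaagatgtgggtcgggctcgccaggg
Nr4a2, chr2:57124004-57124253, minus strand: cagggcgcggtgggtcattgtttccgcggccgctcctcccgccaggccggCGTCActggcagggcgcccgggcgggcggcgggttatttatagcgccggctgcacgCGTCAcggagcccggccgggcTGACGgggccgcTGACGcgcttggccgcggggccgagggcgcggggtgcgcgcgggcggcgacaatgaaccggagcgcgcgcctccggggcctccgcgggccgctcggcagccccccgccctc
Nr4a3, chr4:48045055-48045152, plus strand: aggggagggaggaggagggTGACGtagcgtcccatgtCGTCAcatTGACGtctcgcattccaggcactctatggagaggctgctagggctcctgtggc
Egr2, chr10:67537619-67537868, plus strand: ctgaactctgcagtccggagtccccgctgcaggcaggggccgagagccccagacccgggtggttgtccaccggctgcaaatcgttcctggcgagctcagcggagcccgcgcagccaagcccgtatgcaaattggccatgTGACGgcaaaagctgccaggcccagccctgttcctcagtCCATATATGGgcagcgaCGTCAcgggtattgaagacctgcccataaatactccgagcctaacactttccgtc
Nab1, chr1:52500570-52500599, minus strand: gccccgcggcCGCCCACGCcgggatctgcg

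The core TGACG occurred 4 times in the window of each Nr4a gene and 2 times in the Egr2 window shown. Of all 32851 promoter windows, 17.8% held it at least once. The share that held it 4 times was not counted, and windows were not matched for base composition. In Nr4a3, 3 of the 4 cores lie in the stretch printed above. Nab1 held the core 1 time and Nab2 0 times. The Egr2 window shown was picked because it held both TGACG and a CArG box, so its matches follow from that choice. The CArG box occurred 1 time in it, and 1.47% of all windows held at least 1. Egr2 has 5 windows, some of which overlap one another. Of these, 2 held no TGACG and 1 held no CArG box. The window shown lies downstream of another annotated Egr2 start, at chr10:67537566, so it may fall within a transcript that begins there. Nab1 held GCGTGGGCG 2 times (0.536% of windows) and GCGGGGGCG 1 time (2.57% of windows), and Nr4a1 held GCGGGGGCG 1 time. The window of Nab2, the Egr-inducible corepressor, held neither Egr site. The full palindrome and the NBRE were found in 0 of the 10 windows of these genes, against 1.55% and 1.34% of all windows. A match describes letters in a window and is not a measured site. A link between these matches and the levels after IL-16 was not tested.

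The genes most like Egr3 over the 4 libraries were Sft2d2, Arpc5 and Fh1. Likeness was the root mean square difference of log2(FPKM + 1) after subtraction of the PBS mean, which was 0.0255, 0.0293 and 0.0317 among 7764 candidate rows. A further point of reference is that 106 of these rows lay within 0.1 of Egr3, while 438 lay within 0.1 of Nr4a3. Arpc5, which encodes a subunit of the actin-branching Arp2/3 complex, was 145 and 135 FPKM with PBS against 97.4 and 92.6 FPKM after IL-16. Fh1, the fumarate hydratase gene, was 18.7 and 18.4 FPKM with PBS against 12.4 and 11.7 FPKM after IL-16. Nearest to Nr4a3 were Prxl2a, Fnip1 and Zfp367 (0.0196, 0.0210 and 0.0246). Nearest to Nr4a2 were Lsp1, Tfg and Atxn7l1 (0.0150, 0.0446 and 0.0558). Since they were picked for the Nr4a2 pattern, all were also high in IL-16 replicate 2, Lsp1 with 157 FPKM beside 103 to 110 FPKM in the other libraries.

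Around these genes, 8 lists covered signals into them, other early genes, feedback, linked genes, late activation and handling stress. They held 154 different tested genes, of which 2 were called (1.30%, beside 0.219% of all tested rows), Jun and Tbx21, both higher with IL-16. The lists were chosen with earlier results of these data known, and Tbx21 was also named as a check of the culture. The 1.30% rests on these 2 genes and does not measure an excess of calls. Each list median below stands beside -0.045 over all tested rows, of which 57.8% had a log2 fold change below 0. Jun, an immediate early gene and partner of Fos in AP-1, rose from 54.2 and 51.6 FPKM to 96.8 and 102 FPKM (log2 fold change 0.90, SE 0.072, limma adjusted p = 0.0350). Tbx21, the gene of the Th1 master factor T-bet and here a member of the list tied to Egr2 and Egr3, rose from 46.1 and 47.0 FPKM to 91.3 and 102 FPKM (log2 fold change 1.04, limma adjusted p = 0.0350). Neither call held without PBS replicate 1 (adjusted p = 0.182 and 0.171), without PBS replicate 2 (0.163 and 0.148) or without the filter on low values (0.148 for both).

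Among the 29 tested other immediate early genes 1 rose, none fell and 28 did not pass. The median log2 fold change was -0.029, with 14 above 0 and 15 below. Unadjusted, 6 genes were higher and 7 lower at p under 0.05, which is 44.8% of the list beside 23.4% of all tested rows. Klf2, a factor of T cell quiescence and of S1pr1 transcription, was 16.3 and 17.4 FPKM with PBS against 10.3 and 9.46 FPKM after IL-16 (log2 fold change -0.72, limma adjusted p = 0.0656). Rgs1, a brake on chemokine receptor signalling, was 152 and 143 FPKM with PBS against 191 and 206 FPKM after IL-16 (limma adjusted p = 0.105). Jun and Rgs1 thus lay above and Klf2 below their PBS values, while Egr1 overlapped between the groups.

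Of the 27 tested kinases and factors upstream of the early response none passed, with a median of 0.053 and 22.2% of them at an unadjusted p under 0.05 (all tested rows 23.4%). Nfatc2, the NFAT1 gene, was 52.7 and 53.7 FPKM with PBS against 72.6 and 77.0 FPKM after IL-16 (log2 fold change 0.48, limma adjusted p = 0.0757). Creb1, the gene of the factor that binds cyclic AMP response elements, was 13.8 and 14.4 FPKM with PBS against 10.97 and 11.4 FPKM after IL-16 (log2 fold change -0.31, limma adjusted p = 0.135). Ppp3r1, a calcineurin subunit gene, had a log2 fold change of -0.29 (limma adjusted p = 0.166). These genes went in different directions, with 15 of the list above 0 and 12 below.

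None of the 16 tested feedback genes of calcium and MAP kinase signalling passed, and their median was 0.0084, with 4 higher and 4 lower at an unadjusted p under 0.05 (50% of the list, beside 23.4% of all tested rows). Dusp6, an ERK phosphatase gene, was 12.2 and 12.6 FPKM with PBS against 9.70 and 9.001 FPKM after IL-16 (log2 fold change -0.37, limma adjusted p = 0.118). Dusp2, a nuclear MAP kinase phosphatase gene, was 80.6 and 75.6 FPKM with PBS against 55.3 and 34.5 FPKM after IL-16 (log2 fold change -0.82, limma adjusted p = 0.134). Both lay below PBS in both IL-16 libraries, and the Dusp2 values with IL-16 were far apart. Spred3, a Ras pathway inhibitor gene, was 14.9 and 15.1 FPKM with PBS against 19.0 and 20.7 FPKM after IL-16 (limma adjusted p = 0.108).

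In the list tied to Egr2 and Egr3 in T cells, 1 of 21 tested genes rose, Tbx21, and none fell, while 0.219% of all tested rows were called. The list median was -0.038, beside -0.045 over all tested rows. At an unadjusted p under 0.05, 3 were higher and 3 lower (28.6% of the list, beside 23.4% of all tested rows). Nrn1, which encodes neuritin and is found in anergic T cells, was 42.7 and 39.2 FPKM with PBS against 26.2 and 27.4 FPKM after IL-16 (log2 fold change -0.59, SE 0.079, limma adjusted p = 0.0686). Lag3, an inhibitory receptor gene, was 126 and 131 FPKM with PBS against 174 and 162 FPKM after IL-16 (log2 fold change 0.39, limma adjusted p = 0.105). The Nrn1 values lay on the same side as those of Egr3 and the Lag3 values on the other. In the list tied to Nr4a factors none of 22 tested genes passed, and the median was 0.088, with 8 higher and 2 lower at an unadjusted p under 0.05 (45.5% of the list, beside 23.4% of all tested rows). Besides Klf2, its smallest p-values belonged to Entpd1, the CD39 ectonucleotidase gene (17.5 and 16.3 FPKM with PBS against 24.7 and 26.5 FPKM after IL-16, limma adjusted p = 0.0797), and Runx3 (log2 fold change 0.47, limma adjusted p = 0.130).

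None of the 14 tested partner and tissue retention genes of Cd69 passed, with a median of -0.096 and with 2 higher and 2 lower at an unadjusted p under 0.05 (28.6% of the list, beside 23.4% of all tested rows). Lgals1, a galectin gene, was 468 and 488 FPKM with PBS against 381 and 321 FPKM after IL-16 (log2 fold change -0.45, limma adjusted p = 0.120). Of 20 late activation genes none passed either, with a median of 0.022 and with 7 higher and 2 lower at an unadjusted p under 0.05 (45.0% of the list). Tfrc, the transferrin receptor gene, was 43.4 and 41.6 FPKM with PBS against 26.9 and 23.8 FPKM after IL-16 (log2 fold change -0.73, limma adjusted p = 0.0630). Slamf7 (log2 fold change 0.66, limma adjusted p = 0.0656) and Il2rb (0.40, limma adjusted p = 0.106) lay on the other side.

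Of 13 tested heat shock and handling stress genes none passed, with a median of 0.039, 7 above 0 and 6 below. At an unadjusted p under 0.05, 3 were higher and 4 lower (53.8% of the list, beside 23.4% of all tested rows). The mitochondrial chaperone genes Hspd1 and Hspe1 had log2 fold changes of -0.35 and -0.42 (limma adjusted p = 0.106 and 0.120). The list's median relative to the PBS mean was 0.0035 in replicate 1 of IL-16 and 0.048 in replicate 2.

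**Figure D4:**
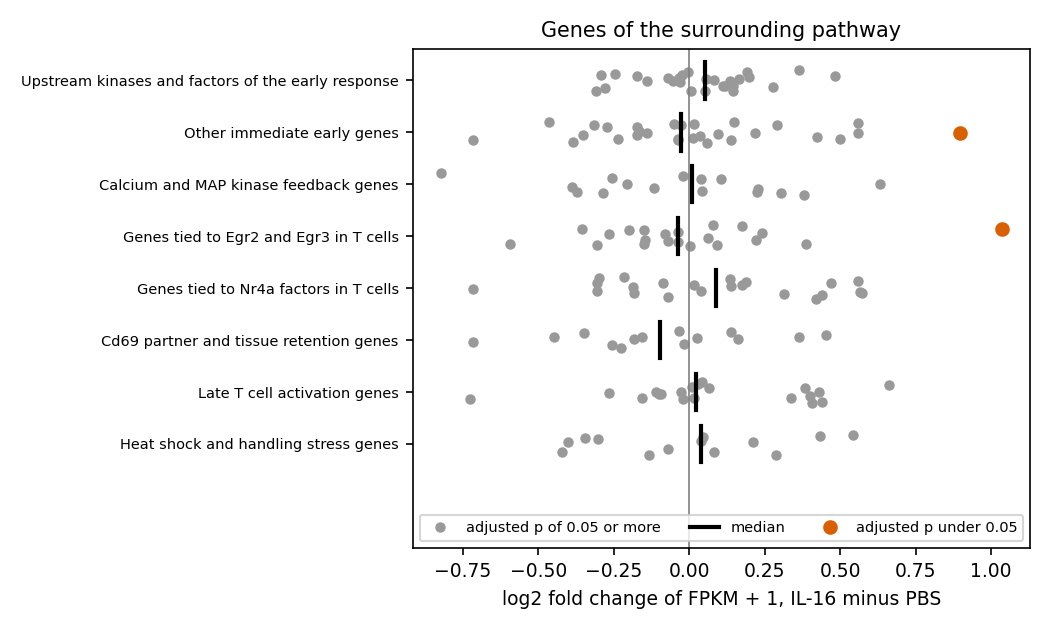
Log2 fold change of FPKM + 1 (IL-16 minus PBS) of each tested gene in the 8 surrounding lists, 1 point per gene, with a black bar at the list median. The only called genes are Jun (0.90) and Tbx21 (1.04). The medians lie between -0.096 and 0.088, beside -0.045 over all tested rows.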

How the data were processed

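The authors deposited 1 value per gene and library. The table names no unit, and its values were read as deposited FPKM because they are not whole numbers and column totals differ. Per the submitters' processing notes, fastp, HISAT2, featureCounts and GRCm39 were used. The tool behind the values is not given in the sources used here. Below 0.2 FPKM at most 1.49% of ratios between libraries fell within any 0.5% window, so reads were not recovered and depth is unknown. Rows with at least 1 FPKM in at least 2 libraries (11882) entered limma 3.58.1 (R 4.3.3) as log2(FPKM + 1), and the variance prior followed a trend in mean level. Two-sided p-values were adjusted by Benjamini-Hochberg across the tested rows and judged at 0.05. The fit was tested on simulated data. All 9 members passed the filter. Members and lists were chosen with earlier results of these data known. Genes named were the members, the 3 of each list with the smallest p, the 3 rows most like each of the 3 members with the largest change, and Ifng and Tbx21. Some list genes that this rule names are not reported here. Promoter sequences are RefSeq's (GRCm38.p6). Alternatives varied the pseudocount, the filter, the scaling, the copy rows and a replicate term, and left out each library in turn, which made 12 fits.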

Additional observations from a re-analysis of the deposited data

How the results depend on the processing

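The calls depended on single libraries. The highest counts below, for all tested rows, the 9 genes and the list genes, came from the fit without IL-16 replicate 1. That fit left 1 IL-16 library and called 17.4% of all tested rows. These counts therefore do not measure an excess of calls among the 9 genes or the list genes. The fit called 26 rows, 53 with median-of-ratios scaling, 40 on the TPM scale, 126 with copy rows summed, 0 without the filter on low values (limma, 3068 of 19465 rows at an unadjusted p under 0.05) and 9 to 2065 when 1 library was left out (9 without either PBS library, 53 without IL-16 replicate 2, 2065 without IL-16 replicate 1). Of the 9 genes 0 were called, and 0 to 2 when 1 library was left out. Of the list genes 2 were called, 8 with copy rows summed, 0 without the filter and 0 to 46 when 1 library was left out. The replicate numbers were not found to pair the libraries (correlation of deviations 0.0067), and with the replicate block 31 rows, 0 of the 9 genes and Jun and Tbx21 were called.

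In some fits a list median moved by more than its spread between libraries, and the cause was not tested. The median over all tested rows also moved with the scaling. It was -0.045 in the main fit, -0.0037 after median-of-ratios scaling and -0.022 after rescaling to TPM. After median-of-ratios scaling the medians were 0.0995 for upstream factors, 0.015 for other immediate early genes, 0.049 for feedback genes, 0.0086 for the list tied to Egr2 and Egr3, -0.051 for Cd69 partners, 0.069 for late activation and 0.082 for heat shock. After rescaling to TPM they were 0.035 for feedback genes, -0.011 for the Egr2 and Egr3 list, -0.072 for Cd69 partners, 0.050 for late activation and 0.068 for heat shock. With the stricter filter (mean of at least 5 FPKM) they were 0.038 for feedback genes, 0.16 for the Nr4a list, -0.019 for Cd69 partners and -0.016 for heat shock. The median of Cd69 partners was -0.049 at a pseudocount of 5. When 1 library was left out, medians ran from -0.058 to 0.0097 (other immediate early genes), -0.030 to 0.047 (feedback), -0.060 to -0.027 (Egr2 and Egr3 list), 0.017 to 0.15 (Nr4a list), -0.105 to -0.026 (Cd69 partners), 0.0037 to 0.046 (late activation) and -0.0025 to 0.048 (heat shock).
The sign of Cd69 turned with median-of-ratios scaling (0.034) and on the TPM scale (0.016). When 1 library was left out, log2 fold changes ran from -0.027 to 0.33 for Egr1, from -0.058 to 0.094 for Egr2, from -0.24 to 0.0032 for Nab2, from -0.0042 to 0.57 for Nr4a2 and from -0.056 to 0.031 for Cd69, with a change of sign in each. Egr3, Nab1, Nr4a1 and Nr4a3 stayed below 0 in all 12 alternatives. Egr2 and Nr4a2 were not tested under the stricter filter.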
